A study of Mus with 8 samples.

Results

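Nitric oxide, natriuretic and cyclic GMP signalling was followed through 8 genes in mouse uterus: the nitric oxide synthases Nos1, Nos2 and Nos3, the natriuretic peptide receptors Npr1, Npr2 and Npr3, the cyclic GMP dependent kinase Prkg1 and the cyclic GMP phosphodiesterase Pde5a. They were taken by gene symbol from a count table of 31269 symbols, and all 8 were found and passed the filter on low counts. Cyclic GMP is a messenger that relaxes smooth muscle. It is made by soluble guanylyl cyclase when nitric oxide binds, and by the receptors Npr1 and Npr2 when natriuretic peptides bind. Its kinase lowers calcium and the calcium sensitivity of the contractile apparatus, and phosphodiesterases end the signal. In uterine and vascular muscle this pathway is known as a brake on contraction.

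The 4 libraries of the mutant group carry the label myometrial PGR deficiency, that is, a loss of the progesterone receptor (PGR) in the muscle wall of the uterus, and are named below by that deficiency label ("labelled deficient" in the plots). The other 4 libraries are labelled control. All 8 hold total RNA from uterus at pseudopregnancy day 6, the progesterone-dominated state after a sterile mating, although the labels also speak of tissue around implantation sites. The alleles, any Cre driver, the strain, the age of the mice and the number of animals per library were not given in the sources used here. Thus p-values reflect library-to-library spread, which may be technical.

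Libraries held 70296369 to 72364750 counts. Pgr, the gene named in the label, measured 187, 184, 177 and 160 CPM (counts scaled by TMM to a common library size) in libraries 1 to 4 with the deficiency label, against 131, 180, 144 and 171 CPM in control libraries 1 to 4. Its log2 difference of the deficiency label over control was 0.18 ± 0.11 (SE; edgeR adjusted p = 0.338), so the counts did not show the labelled loss, and every direction below rests on the label. Counts cover the whole gene in all cell types. All 12 smooth muscle markers were present in every library, at summed levels of 5723 to 6547 CPM in the libraries with the deficiency label and 5821 to 8320.4 CPM in the controls. In epithelial and endothelial marker sums, libraries 2 and 3 with the deficiency label stood apart from the other 6. Their epithelial marker sums were 3911 and 3000.3 CPM, against 1648 to 1982 CPM elsewhere, and their endothelial sums were 979 and 1119.8 CPM, against 1403 to 1859 CPM elsewhere. In whole tissue, fewer cells of a type and less RNA per cell cannot be told apart.

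Of the 8 genes, Pde5a and Nos1 separated the groups, in opposite directions. Pde5a was lower in every library with the deficiency label than in any control, at 0.443 times the control level by the fitted ratio. Nos1, the neuronal nitric oxide synthase, was higher in every library with the deficiency label than in any control, at 2.17 times. The other 6 genes overlapped between the groups. In edgeR's quasi-likelihood test 0 of the 8 members passed an adjusted p of 0.05, as did 0 of 17629 genes tested (0%). At an unadjusted p under 0.05 edgeR gave 2 of the 8 members, against 24.8% of all genes, so this share of the members is close to the background. DESeq2 called the same pair, Pde5a and Nos1, at an adjusted p of 0.05, against 14.2% of all genes, and limma-voom called neither of them and 2 genes in all. The groups did not overlap in 2 of the 8 members, against 16.3% of all genes. Of these, 1 lay above the controls and 1 below, against 7.61% and 8.66% of all genes. A log2 difference at least as large as that of Nos1, in either direction, was found in 5.58% of all genes.

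**Figure D1:**
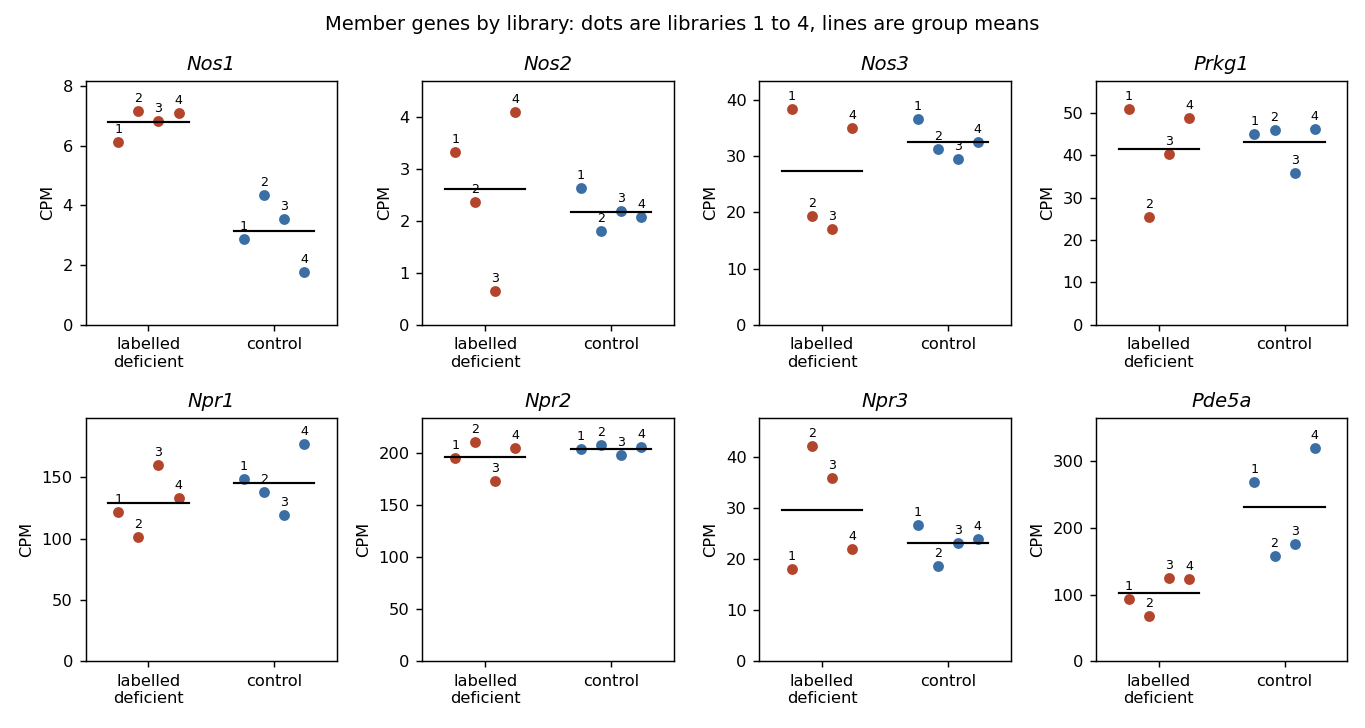
CPM (vertical axes, from 0) of the 8 genes in each library, with libraries with the deficiency label on the left of each panel and controls on the right. Dots are numbered by library and black lines are group means of 4 libraries. Nos1 and Pde5a are the panels in which the groups do not overlap, and libraries 2 and 3 with the deficiency label lie apart in Nos3 and Npr3.

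The nitric oxide synthases make nitric oxide from arginine. Nos1 (chromosome 5, 117866839 to 117958840; GRCm38.p6 here and below), the form known from neurons and skeletal muscle, measured 6.12, 7.16, 6.84 and 7.10 CPM in libraries 1 to 4 with the deficiency label, against 2.88, 4.35, 3.56 and 1.78 CPM in control libraries 1 to 4. The groups did not overlap, and the libraries with the deficiency label lay close together, at 6.81 ± 0.477 CPM (SD, n = 4), against 3.14 ± 1.09 CPM in the controls (SD, n = 4). The log2 difference was 1.12 ± 0.26 (SE), with a 95% interval from 0.53 to 1.71. The adjusted p was 0.0906 in edgeR and 0.0013 in DESeq2. A two-sided exact permutation test of mean log2 CPM gave p = 0.0286, which is the smallest p that 4 against 4 libraries can give. The counts behind these values were 443 to 519 per library with the deficiency label and 126 to 308 per control library.

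Nos2 (chromosome 11, 78920787 to 78960226), the inducible form known from activated macrophages, was the member that varied most within the group with the deficiency label. It measured 3.33, 2.36, 0.653 and 4.09 CPM in libraries 1 to 4 with the deficiency label, against 2.63, 1.81, 2.19 and 2.07 CPM in the controls. Library 3 with the deficiency label lay below all controls while libraries 1 and 4 lay above them. Its log2 difference was 0.26 ± 0.47 (SE; edgeR adjusted p = 0.751), with a 95% interval from -0.82 to 1.34. It changed sign to -0.04 without library 4 with the deficiency label and reached 0.58 without library 3 with the deficiency label. Summed macrophage and monocyte markers ran differently, at 1078, 1450.0, 1466 and 1148 CPM in libraries 1 to 4 with the deficiency label, against 861 to 1145 CPM in the controls.

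Nos3 (chromosome 5, 24364816 to 24384474), the endothelial form, split the libraries with the deficiency label into pairs. It measured 38.4 and 35.0 CPM in libraries 1 and 4 and 19.3 and 17.1 CPM in libraries 2 and 3, against 36.7, 31.3, 29.6 and 32.6 CPM in the controls. Libraries 2 and 3 lay below every control, library 1 lay above them and library 4 lay within their range. The log2 difference was -0.25 ± 0.26 (SE; edgeR adjusted p = 0.574) with a 95% interval from -0.84 to 0.35, and it was 0.18 without libraries 2 and 3. Nos3 overlaps Atg9b (chromosome 5, 24384181 to 24392143) only at its end, from 24384181 to 24384474. Atg9b is an autophagy gene whose counts summed to 40825 over the 8 libraries, against 17201 for Nos3. Atg9b measured 2.14, 30.3, 108 and 17.1 CPM in libraries 1 to 4 with the deficiency label, against 59.0 to 196 CPM in the controls. No source used here says whether counting used strand, so reads in the shared stretch cannot be told apart.

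Npr1 and Npr2 are receptors with a guanylyl cyclase inside the cell, while Npr3 lacks the cyclase and is known for clearing natriuretic peptides. Npr1 (chromosome 3, 90450591 to 90465928), the receptor of the atrial and B-type peptides, measured 122, 102, 159.7 and 133 CPM in libraries 1 to 4 with the deficiency label, against 148, 138, 119 and 176 CPM in the controls. The groups overlapped, and the log2 difference was -0.17 ± 0.16 (SE; edgeR adjusted p = 0.519) with a 95% interval from -0.54 to 0.19. Npr2 (chromosome 4, 43629015 to 43651437), the receptor of the C-type peptide, was the steadiest member. It measured 195, 210.3, 172 and 205 CPM in libraries 1 to 4 with the deficiency label, against 204, 207, 198 and 205 CPM in the controls, a coefficient of variation of 8.57% and 1.94%. Library 3 with the deficiency label was the low one. The 95% interval of its ratio, from 0.858 to 1.07 (edgeR adjusted p = 0.625), was the narrowest of the 8. Spag8, which overlaps Npr2, had 968 counts over the 8 libraries.

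Npr3 (chromosome 15, 11839896 to 11907837) split the libraries with the deficiency label the other way from Nos3. It measured 42.0 and 35.9 CPM in libraries 2 and 3 with the deficiency label and 18.1 and 22.0 CPM in libraries 1 and 4, against 26.7, 18.6, 23.2 and 23.9 CPM in control libraries 1 to 4. Libraries 2 and 3 lay above every control, library 1 lay below all of them and library 4 lay within their range. Its log2 difference was 0.35 ± 0.27 (SE; edgeR adjusted p = 0.426), with a 95% interval from -0.25 to 0.96, and it was 0.14 without library 2 and -0.20 without libraries 2 and 3. Taken as a ratio within each library, Npr3 over Npr1 was -2.75, -1.27, -2.15 and -2.60 on the log2 scale in libraries 1 to 4 with the deficiency label, against -2.89 to -2.36 in the controls. These ratios are not corrected for gene length, so they compare libraries and not the levels of the receptors.

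Prkg1 (chromosome 19, 30564487 to 31765268), the kinase that carries most of the cyclic GMP response in smooth muscle, measured 51.0, 25.5, 40.3 and 48.7 CPM in libraries 1 to 4 with the deficiency label, against 44.9, 45.9, 35.9 and 46.2 CPM in the controls. Library 2 with the deficiency label was the lowest of all 8 and library 1 the highest. The log2 difference was -0.06 ± 0.21 (SE; edgeR adjusted p = 0.865), with a 95% interval from -0.54 to 0.41, and it was 0.12 without library 2 with the deficiency label. Cstf2t, a gene that lies within the Prkg1 locus, had a log2 difference of 0.21 ± 0.09 (SE; edgeR adjusted p = 0.216).

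Pde5a (chromosome 3, 122729158 to 122859374), the enzyme that breaks down cyclic GMP and the target of sildenafil, measured 93.7, 67.5, 124 and 123 CPM in libraries 1 to 4 with the deficiency label, against 268, 159, 176 and 319 CPM in control libraries 1 to 4. The groups did not overlap, and the controls spread more widely, at 102 ± 27.2 CPM in the libraries with the deficiency label and 231 ± 76.2 CPM in the controls (SD, n = 4 each). Its log2 difference was -1.17 ± 0.27 (SE), with a 95% interval from -1.81 to -0.54. The adjusted p was 0.0909 in edgeR and 0.00143 in DESeq2, and the two-sided exact permutation test gave p = 0.0286. The controls ranked in opposite orders for the 2 genes that separate the groups. Control library 4 had the most Pde5a and the least Nos1, followed by control libraries 1, 3 and 2 in both orders.

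The differences of Pde5a and Nos1 kept their sign when any 1 library was left out, at -1.32 to -0.99 and 0.91 to 1.31 on the log2 scale (edgeR adjusted p from 0.0686 to 0.252 and from 0.0745 to 0.252). Without libraries 2 and 3 with the deficiency label they were -1.09 and 1.08 (edgeR adjusted p = 0.167 and 0.182). In DESeq2, with 1 library left out at a time, the adjusted p ran from 0.000322 to 0.0185 for Pde5a and from 3.1e-05 to 0.0136 for Nos1. Without libraries 2 and 3 it was 0.00571 and 0.0369, and Nos2 was called as well (0.77 ± 0.25, DESeq2 adjusted p = 0.0265).

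**Figure D2:**
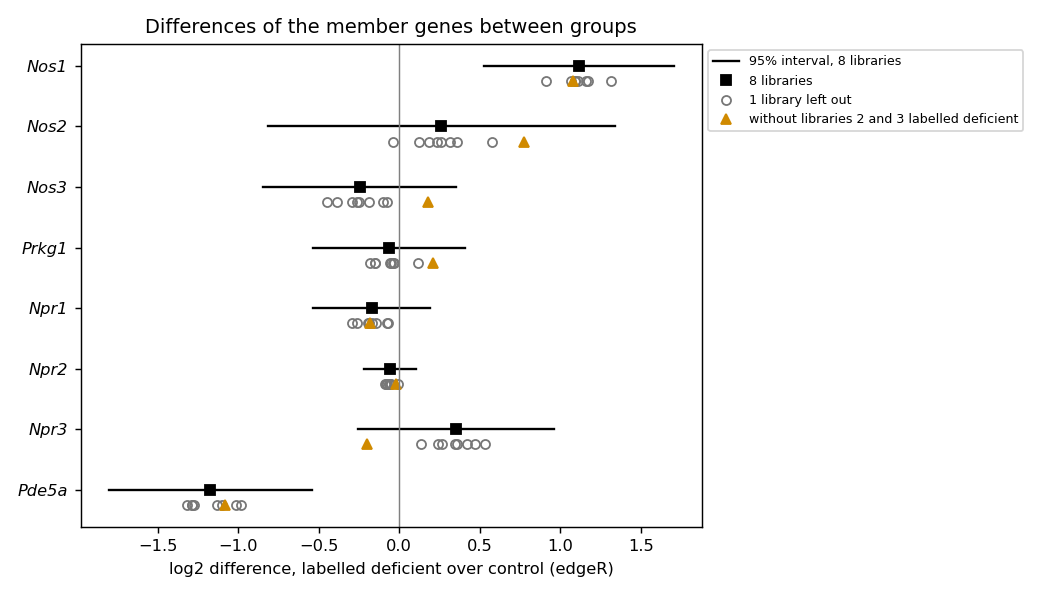
Log2 difference of deficiency label over control (horizontal axis, edgeR) for the 8 genes. Squares and lines are the fit on 8 libraries with its 95% interval, open circles leave out 1 library each, and triangles leave out libraries 2 and 3 with the deficiency label. The intervals of Nos1 and Pde5a do not include 0, while Nos3, Prkg1 and Npr3 change side without libraries 2 and 3.

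The summed levels of cell type markers were set beside these values. For smooth muscle, where Pde5a and Prkg1 are known to act, 12 of 12 tested markers had negative differences, against 48.0% of all genes. Their median was -0.24, against 0.01 over all genes. Of the 12, 5 had an unadjusted edgeR p under 0.05, against 11.8% lower over all genes. DESeq2 called 2 of the 12, against 6.72% called lower over all genes. Only 1 of the 12 lay below every control, against 8.66% of all genes. Mylk, one of these markers, is also in the list of cyclic GMP targets below. The log2 ratio of Pde5a to the smooth muscle sum was -5.93, -6.49, -5.72 and -5.63 in libraries 1 to 4 with the deficiency label, against -4.44, -5.65, -5.26 and -4.70 in the controls. The groups overlapped here by 1 library each, library 4 with the deficiency label and control library 2. The mean ratio differed by -0.93, against -1.17 for Pde5a itself in the edgeR fit, which is not the same measure. Pde5a over Prkg1 did not overlap, at 0.88 to 1.63 in the libraries with the deficiency label and 1.79 to 2.79 in the controls. Pde5a over the pericyte sum did not overlap either, at -3.41 to -2.64 in the libraries with the deficiency label and -2.62 to -1.78 in the controls. Pde5a alone already separated the groups, so neither ratio is a separate result.

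Other marker sums also moved with the groups, and their part in the differences was not tested. The macrophage and monocyte list, whose sums stand beside Nos2 above, had 11 of 12 markers at positive differences. Of these, 8 had an unadjusted edgeR p under 0.05, 7 were called by DESeq2 and 7 lay above every control, although the sums overlapped. Over all genes, 13% were higher at an unadjusted edgeR p under 0.05, 7.43% were called higher by DESeq2 and 7.61% lay above every control. The stromal fibroblast sum was 9401 to 11577 CPM in the libraries with the deficiency label and 7090.4 to 9294 CPM in the controls, with 5 of 9 markers at positive and 4 at negative differences. The mesothelial sum was 148 to 243 CPM in the libraries with the deficiency label and 297 to 378 CPM in the controls, with 5 of 5 markers at negative differences. Nos1 relative to the smooth muscle sum did not overlap, at -9.89 to -9.72 in the libraries with the deficiency label and -12.15 to -10.82 in the controls. This is no separate result, as Nos1 alone already separated the groups. Nos1 relative to the nerve and Schwann cell sum overlapped, at -4.45, -4.36, -3.99 and -3.40 in libraries 1 to 4 with the deficiency label, against -4.38, -4.18, -4.17 and -4.83 in the controls. The mean of this ratio differed by 0.33, against 1.12 for Nos1 itself in the edgeR fit, which is not the same measure. Of the 10 markers of that list 7 were tested, 4 with positive and 3 with negative differences. At an unadjusted edgeR p under 0.05, 2 were higher and 1 lower, against 13% and 11.8% of all genes. The sum of 75.7 to 149 CPM in the libraries with the deficiency label and 51.8 to 79.6 CPM in the controls was mostly Cnp, which measured 62.2 to 135 CPM and 38.0 to 65.7 CPM in these groups. The neuronal markers Snap25, Tubb3 and Elavl4 were at or below 0.254 CPM in all libraries, and Uchl1 measured 0.549 to 1.51 CPM in the libraries with the deficiency label and 1.60 to 3.03 CPM in the controls. Nos3 relative to the endothelial sum was -5.59, -5.66, -6.03 and -5.57 in libraries 1 to 4 with the deficiency label, against -5.71 to -5.43 in the controls. By this ratio library 3 with the deficiency label lay below all controls, and libraries 1, 2 and 4 lay within their range.

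**Figure D3:**
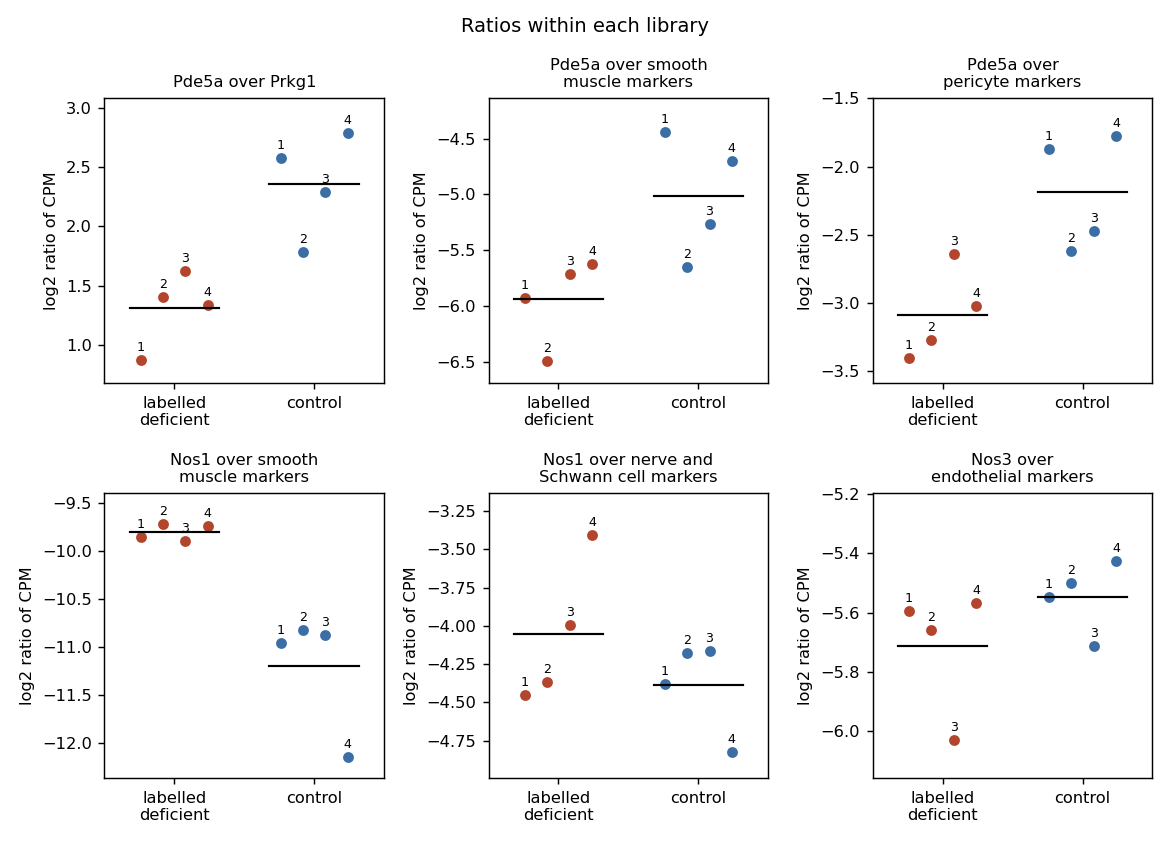
Log2 ratios of CPM within each library (vertical axes, which do not start at 0), with libraries with the deficiency label left and controls right; dots are libraries and lines are group means of 4. Pde5a over Prkg1, Pde5a over pericyte markers and Nos1 over smooth muscle markers do not overlap between groups, while Pde5a over smooth muscle markers, Nos1 over nerve and Schwann cell markers and Nos3 over endothelial markers do. Pde5a and Nos1 on their own do not overlap either.

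Around the 8 members, 78 further genes of the pathway were examined in 5 lists, of which 64 passed the filter. In edgeR 0 of the 64 passed an adjusted p of 0.05, and 21 had an unadjusted p under 0.05, 10 of them higher and 11 lower than in the controls, against 13% higher and 11.8% lower over all genes. DESeq2 called 11 of the 62 that had an adjusted p, 5 higher and 6 lower, against 7.43% and 6.72% over all genes. The 21 became 11 without control library 4 and 12 without library 2 with the deficiency label. DESeq2 called 4 without control library 4, 6 without control library 1 or control library 3, 5 without library 3 with the deficiency label, and 7 without libraries 2 and 3. Of the 64, 4 lay above every control and 7 below, against 7.61% and 8.66% of all genes, so these shares are close to the background. The median log2 difference of the 64 was -0.05, against 0.01 over all genes. The 14 genes left out by the filter had 3 to 84 counts each over the 8 libraries, among them Nppb, the B-type peptide gene, with 3.

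**Figure D4:**
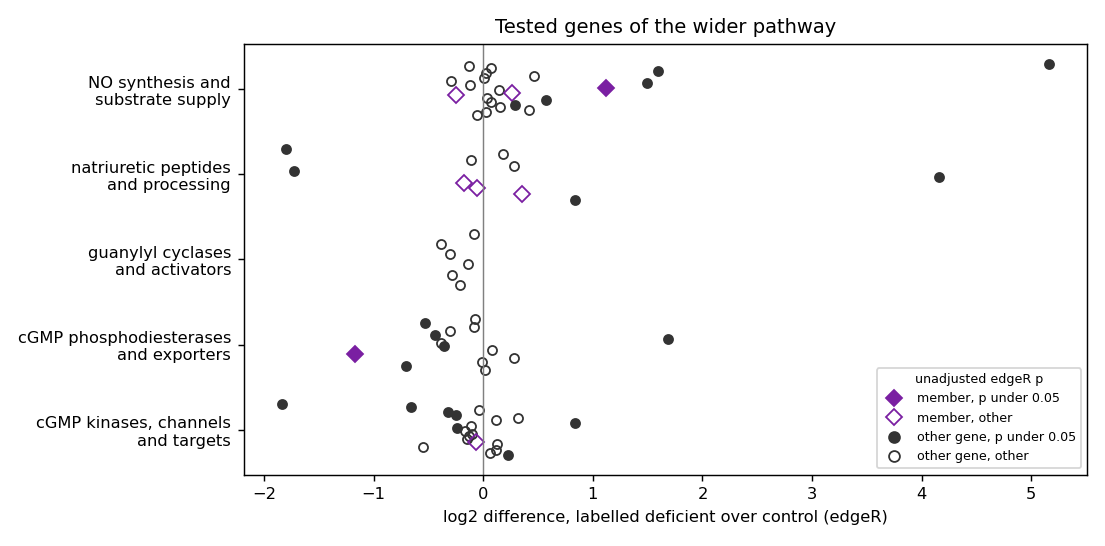
Log2 difference of deficiency label over control (horizontal axis, edgeR) for every tested gene of the 5 lists, 1 row of points per list; height within a row only separates the points. Diamonds are the 8 members, circles are other genes, and filled symbols have an unadjusted p under 0.05. The 6 tested genes of the list of guanylyl cyclases and their peptide activators lie left of 0, and the point farthest right is Arg1.

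Among the peptides and their processing enzymes, 4 of 7 tested genes had an unadjusted edgeR p under 0.05, against 24.8% of all genes. There were 2 in each direction, against 13% higher and 11.8% lower over all genes. DESeq2 called 3 of 7, against 14.2% of all genes. Nppc, which encodes the C-type peptide, measured 1.26, 33.5, 4.16 and 2.09 CPM in libraries 1 to 4 with the deficiency label, against 0.234, 1.02, 0.548 and 0.494 CPM in the controls. All 4 libraries with the deficiency label lay above all controls, and library 2 lay far above the other 3. The log2 difference was 4.16 ± 1.14 (SE; adjusted p = 0.104 in edgeR and 0.000389 in DESeq2), and it was 2.13 without library 2 with the deficiency label. Nppa, which encodes the atrial peptide, measured 0.511, 0.475, 0.539 and 0.629 CPM in the libraries with the deficiency label, against 1.23, 1.16, 1.56 and 3.19 CPM in the controls.

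Corin, the protease that activates the atrial peptide, measured 1.27, 0.237, 1.08 and 1.29 CPM in the libraries with the deficiency label, against 2.82, 2.07, 2.64 and 5.97 CPM in the controls. Nppa and Corin were both low in abundance and did not reach the lowest control in any library with the deficiency label, with log2 differences of -1.72 ± 0.36 and -1.80 ± 0.54 (SE; edgeR adjusted p = 0.0906 and 0.114, DESeq2 adjusted p = 0.000963 and 0.0132). Ostn, whose product osteocrin binds Npr3, was at 0.301 to 0.401 CPM in the libraries with the deficiency label and 0.110 to 0.287 CPM in the controls (edgeR adjusted p = 0.166). Of 8 mast cell markers 6 were tested, of which 4 had negative and 2 positive differences. The 4 negative ones, the proteases Cpa3, Tpsb2, Cma1 and Mcpt4, did not overlap between the groups and, like Pde5a, Nppa and Corin, were highest in control library 4. Over all genes 8.66% lay below every control. Cpa3 measured 0.608 to 1.99 CPM in the libraries with the deficiency label and 3.63 to 11.6 CPM in the controls. The 2 positive ones, Hdc and Kit, overlapped, and they made up most of the summed mast cell markers. That sum was 507, 62.5, 112 and 293 CPM in libraries 1 to 4 with the deficiency label, against 215, 227, 216 and 128 CPM in control libraries 1 to 4, so the markers of this list did not move one way. Its part in the differences was not tested.

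Of the 19 tested genes of nitric oxide synthesis and its substrate supply, 5 (26.3%) had an unadjusted edgeR p under 0.05, close to the 24.8% of all genes. All 5 were higher, against 13% of all genes. DESeq2 called 3 of 18 (16.7%), close to the 14.2% of all genes. These 3 were all higher, against 7.43% of all genes. Nostrin, which traffics the endothelial synthase, measured 7.71, 7.36, 8.12 and 6.31 CPM in libraries 1 to 4 with the deficiency label, against 5.83, 4.32, 4.97 and 4.70 CPM in the controls, with no overlap (log2 difference 0.57 ± 0.14 SE; adjusted p = 0.0987 in edgeR and 0.00193 in DESeq2). Gch1, the entry enzyme of synthesis of the cofactor tetrahydrobiopterin, measured 7.69, 33.7, 15.6 and 6.74 CPM in the libraries with the deficiency label, against 5.06 to 6.19 CPM in the controls. Its difference of 1.49 ± 0.49 (SE; adjusted p = 0.128 in edgeR and 0.0183 in DESeq2) shrank to 0.82 when library 2 was left out and to 0.35 when libraries 2 and 3 were. Pts, a later enzyme of the same route, was at 0.29 ± 0.12 (edgeR adjusted p = 0.185).

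Libraries 2 and 3 with the deficiency label, which had the highest epithelial marker sums, also held the highest values of Ass1 and Arg1; the part of those cells was not tested. Ass1, which remakes arginine from citrulline, measured 50.4 and 31.2 CPM in these libraries and 5.49 and 9.82 CPM in libraries 1 and 4, against 6.97 to 8.996 CPM in the controls. Arg1, an arginase that competes for arginine, measured 526 CPM in library 2 and 18.6 CPM in library 3, and 3.37 and 3.12 CPM in libraries 1 and 4, against 2.26 to 5.91 CPM in the controls. Without libraries 2 and 3 the log2 differences were -0.06 for Ass1 and -0.24 for Arg1, against 1.59 ± 0.62 and 5.16 ± 1.74 (SE; edgeR adjusted p = 0.166 and 0.134) with them. Without library 2 alone they were 0.95 and 1.12. DESeq2 called Ass1 (adjusted p = 0.0412) and gave Arg1 no adjusted p. For Asl and Arg2, other arginine enzymes, libraries 2 and 3 did not lie above the controls. Asl, which acts after Ass1, measured 151, 58.2, 104 and 148 CPM in libraries 1 to 4 with the deficiency label, against 80.0 to 130 CPM in the controls. Arg2, the other arginase, measured 21.9, 24.2, 31.3 and 16.6 CPM in libraries 1 to 4 with the deficiency label, against 20.6 to 34.5 CPM in the controls. Libraries 2 and 3 were thus the highest of their group for Arg2, but within the control range. Cav1, which holds the endothelial synthase inactive in caveolae and had the most counts of this list, was at 0.03 ± 0.08 (edgeR adjusted p = 0.866); it was -0.01 with library totals as the scaling.

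**Figure D5:**
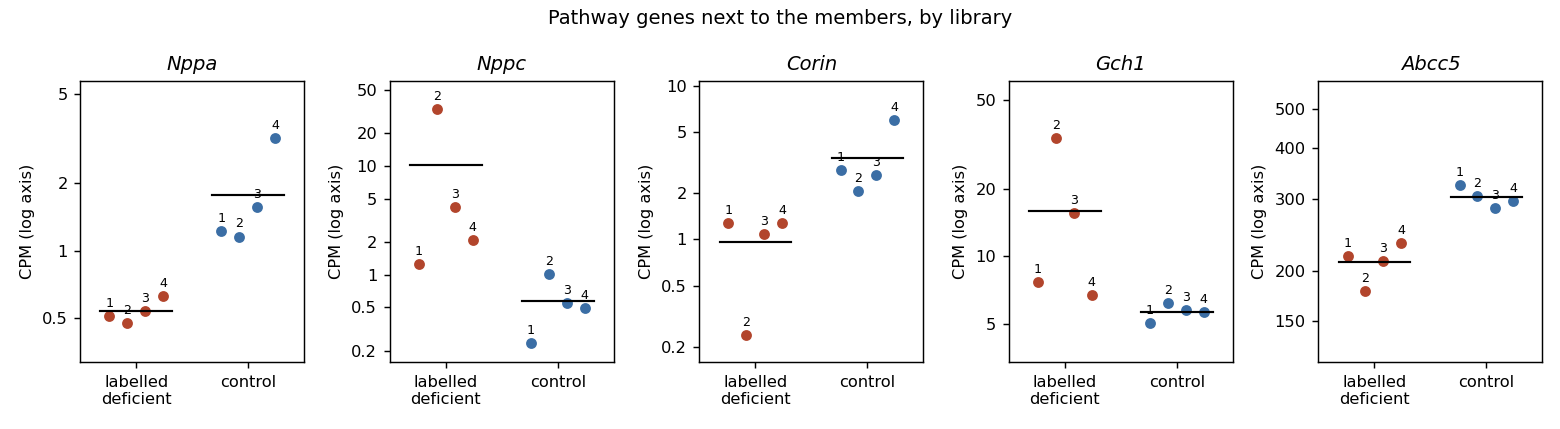
CPM on log axes for Nppa, Nppc, Corin, Gch1 and Abcc5, with libraries with the deficiency label left and controls right. Dots are numbered by library and lines are arithmetic group means of 4. The groups do not overlap in any of the 5 panels. These genes were taken from those with the smallest p in the same libraries, and 16.3% of all genes do not overlap. Library 2 with the deficiency label is the highest for Nppc, at 33.5 CPM, and for Gch1, at 33.7 CPM.

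Soluble guanylyl cyclase, the receptor of nitric oxide, is built from an alpha and a beta subunit, listed here as Gucy1a3 and Gucy1b3. Gucy1a3 measured 84.2, 36.0, 50.7 and 69.4 CPM in libraries 1 to 4 with the deficiency label, against 73.4, 71.8, 73.7 and 77.1 CPM in the controls. Gucy1b3 measured 41.1, 23.3, 33.6 and 44.8 CPM in the libraries with the deficiency label, against 46.8, 40.2, 45.3 and 42.1 CPM in the controls. For both subunits, as for Nos3, libraries 2 and 3 with the deficiency label lay below every control. These libraries had the lowest endothelial and pericyte sums, and the part of those cells was not tested. The pericyte sums were 652 and 776 CPM there, 993 and 999.8 CPM in libraries 1 and 4, and 972 to 1096 CPM in the controls. Library 1 lay above the controls for Gucy1a3, library 4 lay just below them, and both lay within their range for Gucy1b3. The log2 differences were -0.30 ± 0.23 and -0.29 ± 0.19 (SE; edgeR adjusted p = 0.434 and 0.356), and Gucy1a3 was at -0.11 without library 2 and -0.51 without library 1 with the deficiency label. All 6 tested genes of the list of guanylyl cyclases and their peptide activators had negative differences (median -0.25). Of these, 0 had an unadjusted edgeR p under 0.05 or were called by DESeq2.

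Of the 13 tested phosphodiesterases and exporters other than Pde5a, 5 (38.5%) had an unadjusted edgeR p under 0.05, 4 lower and 1 higher, against 24.8% of all genes. DESeq2 called 1 of 12 (8.33%), Abcc5, against 14.2% of all genes. Abcc5, an exporter of cyclic nucleotides, measured 217, 178, 211 and 233 CPM in libraries 1 to 4 with the deficiency label, against 325, 306, 285 and 297 CPM in the controls, with no overlap. Its log2 difference was -0.53 ± 0.09 (SE; adjusted p = 0.0906 in edgeR and 3.4e-05 in DESeq2), and it was -0.59 to -0.46 with any 1 library left out. Pde1b and Pde3a, which hydrolyse both cyclic nucleotides, were at -0.44 ± 0.16 and -0.35 ± 0.14 (edgeR adjusted p = 0.150 and 0.176), and Pde6g, known from photoreceptors, at -0.70 ± 0.28 (edgeR adjusted p = 0.176) with at most 0.835 CPM. Pde1c, in the other direction at 1.68 ± 0.73 (edgeR adjusted p = 0.2) and 0.34 without library 2, measured 5.62 CPM in library 2 with the deficiency label, 0.624 to 0.968 CPM in the other 3, and 0.465 to 0.767 CPM in the controls.

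Of the 19 tested kinases, channels and targets other than Prkg1, 7 (36.8%) had an unadjusted edgeR p under 0.05, 5 lower and 2 higher, against 24.8% of all genes, of which 11.8% lower and 13% higher. DESeq2 called 4 of 19, against 14.2% of all genes. The cyclic nucleotide gated channel genes Cngb1 and Cnga2 lay below every control, at 2.94 to 5.31 CPM in the libraries with the deficiency label and 5.95 to 7.67 CPM in the controls for Cngb1, and at 0.0148 to 0.241 CPM and 0.438 to 0.593 CPM in these groups for Cnga2. Their log2 differences were -0.66 ± 0.20 and -1.84 ± 0.57 (SE; edgeR adjusted p = 0.112 and 0.118, DESeq2 adjusted p = 0.0163 and 0.031). Hspb6, a small heat shock protein phosphorylated during muscle relaxation, measured 14.6 to 18.7 CPM in the libraries with the deficiency label and 18.9 to 23.0 CPM in the controls. Its log2 difference was -0.32 ± 0.11 (SE; adjusted p = 0.137 in edgeR and 0.0454 in DESeq2). Itpr1, a calcium release channel, and Mylk, the myosin light chain kinase and the most abundant gene of this list by counts, were at -0.25 ± 0.09 and -0.24 ± 0.10 (edgeR adjusted p = 0.158 and 0.171). Mrvi1, the Prkg1 partner that restrains Itpr1, was at -0.11 ± 0.13 (edgeR adjusted p = 0.631). Vasp, an actin regulator and kinase substrate, was at 0.23 ± 0.08 (edgeR adjusted p = 0.152). Lrmp, a relative of Mrvi1, was at 0.84 ± 0.29 (SE; adjusted p = 0.144 in edgeR and 0.0435 in DESeq2) and at 0.44 without library 2, with 69.8 CPM in library 2 with the deficiency label against 27.7 to 34.0 CPM in the other 3 and 19.2 to 27.7 CPM in the controls.

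Genes with the library pattern most like the members were sought among 14133 tested genes with a mean log2 CPM above 1, by the root-mean-square distance between centred log2 CPM over the 8 libraries. The measure was applied to the 3 members whose log2 CPM had an SD above 0.5. For Pde5a the nearest were Susd4, Cdh2 and Chodl, at distances of 0.167, 0.173 and 0.175 on the log2 scale, where Pde5a itself had an SD of 0.746. For Nos1 (SD 0.729) they were Ppp2r2c, Tlr9 and Cd72, at 0.215, 0.223 and 0.225. For Nos2 (SD 0.776) no gene came nearer than Ankrd33b at 0.382. The libraries share group and depth, so these distances describe the 8 libraries only.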

How the data were processed

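RNA of 8 uterine libraries was compared, 4 labelled myometrial PGR deficiency and 4 labelled control. The authors deposited whole-number read counts per gene symbol, with no normalization. The submitters' processing notes name HISAT2 2.2.1, HTSeq 0.10.0 and build mm10. Strand and other settings were not given in the sources used here. Columns were matched to sample titles. Coordinates and older symbols were looked up in RefSeq's genes for GRCm38.p6 (mm10 is the same assembly), where 22353 symbols matched. No transcript lengths were at hand, so levels were not compared between genes.

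From the deposited counts, genes were filtered with filterByExpr (17629 left), scaled with TMM and tested with edgeR 4.0.16 (glmQLFit and glmQLFTest, R 4.3.3), without covariates, and with Benjamini-Hochberg adjustment over all genes tested (threshold 0.05). Log2 differences are deficiency label over control, and the SE is the absolute difference divided by the root of F. Permutation tests and ratios used log2(CPM + 0.05). DESeq2 1.42.0, limma-voom (limma 3.58.1), other scalings and filters, robust=TRUE, legacy=FALSE, the replicate number as a block, and leaving out libraries were alternatives, and DESeq2 with libraries left out was added after seeing the data. The code was tested on simulated data. No 2 libraries were alike within counting noise: chi-square divided by its degrees of freedom was at least 48.6.

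The members, gene lists and tests were chosen with earlier results of these data known. Named genes were the 8 members, Pgr, up to 6 genes per pathway list with the smallest unadjusted p under 0.05, the most abundant gene of each list and, for members with an SD above 0.5, the 3 genes nearest in pattern. Overlapping genes, markers, Asl, Arg2, Gucy1b3 and Mrvi1 were named after their values were seen.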

Additional observations from a re-analysis of the deposited data

Results flagged for a closer look

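In 64 groups of 4 libraries, from 32 genes, the highest or lowest library was set against the other 3 by its gap as a share of the whole range. A share above the 95% critical value of Dixon's test was found in 6. About 1 in 20 groups would pass it if values were independent and normal. The genes were mostly chosen by small p in the same libraries, so the 6 cannot be set against that rate. Among the members this was Prkg1 in the controls, where control library 3 (35.9 CPM, against 44.9 to 46.2 CPM) had a share of 0.875. In the group with the deficiency label the highest library was library 2 in each case: Arg1 (share 0.970), Nppc (0.910), Pde1c (0.931) and Lrmp (0.849). In the controls, Vasp was highest in library 2 (share 0.845).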

How the results depend on the processing

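Of the 171 refits of the 8 members and Pgr, 163 kept direction and side of the threshold, 6 reversed direction and 2 gained a call. The main fit called 0 genes, so staying on the same side of the threshold says little. DESeq2 called Pde5a (-1.17) and Nos1 (1.12), so 2 members in place of 0, and 2488 genes in all; limma-voom called 2 genes, legacy=FALSE 3 and the replicate block 23. Nos2 reversed to -0.0038 with limma-voom, and Cav1 to -0.01 with library totals. Without libraries 2 and 3 with the deficiency label, Prkg1 (0.21), Npr3 (-0.20), Nos3 (0.18), Arg1 (-0.24), Ass1 (-0.065) and Gucy1a3 (0.058) reversed, and DESeq2 called 1461 genes and 7 of the wider lists. The causes were not tested. With 1 library left out, edgeR called 0 to 2 genes, with 2896 (without control library 4) to 5471 genes (without library 4 with the deficiency label) at an unadjusted p under 0.05, and 11 to 24 of the wider lists. Prkg1 ran from -0.18 to 0.12, Nos2 from -0.041 to 0.58 and Cav1 from -0.019 to 0.079. DESeq2 called 927 (without control library 4) to 3961 genes (without library 4 with the deficiency label) and 4 to 14 of the wider lists, in place of 11; leaving out control library 1 gave 1328 genes, and leaving out library 2 with the deficiency label gave 1531.

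Same-numbered libraries did not all deviate together (correlations across genes of 0.202, 0.235, -0.012 and -0.0779 for numbers 1 to 4), and libraries 3 and 4 with the deficiency label correlated best with a control of another number. Under the replicate block Pde5a was -1.16 and Nos1 1.18 (edgeR adjusted p = 0.0666 and 0.0879), and no member was called. No scaling moved the median of all genes by more than 0.04 on the log2 scale. The lowest count of Nos2 was 46, in library 3 with the deficiency label. Other members had at least 126 counts in every library.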
